A study of Mus musculus with 2 samples.

Results

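Cytosolic ribosomal protein genes were followed in 3 classes of retinal macrophages, in retinas with and without light damage. The genes were taken by name: every symbol of the gene table made of Rpl or Rps and a number, with Rplp0, Rplp1, Rplp2 and Rpsa, leaving out symbols marked as pseudogenes and the S6 kinases. This gave 87 of 27998 genes: 43 of the large subunit, 31 of the small subunit, 3 of the stalk, 9 paralogs or retrocopies, and Rps19bp1, whose product binds a ribosomal protein but is not one. The rule did not reach some other genes of ribosomal proteins, such as Fau and Gnb2l1 (Rack1).

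A ribosome is built of ribosomal RNA and of one copy each of most of these proteins, except for the stalk, which carries Rplp1 and Rplp2 in more than one copy. Cells make the proteins in step, and many of their mRNAs begin with a run of pyrimidines, the 5′ terminal oligopyrimidine motif, through which growth signals set their translation. In single-cell libraries these mRNAs are among the most abundant, and their share of all transcripts moves with cell type, growth and activation.

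Both groups were male CB6F1. Cx3cr1-YFP mice of 8 months, in which cells that use the Cx3cr1 promoter, microglia among them, carry a yellow fluorescent protein. The control group had no light damage. The light-damaged group was kept in the dark overnight, had its pupils dilated with atropine and phenylephrine, received 10 klux of LED light for 4 hours and recovered for 5 days. Retinas of 5 to 8 mice were pooled per group, and sorted YFP-positive cells of each pool made 1 library of the 10x 3′ type. With 1 library per group no difference has a replicate check, no test was possible, and light damage and library cannot be told apart. All intervals below are exact 95% intervals that cover counting error only.

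The control library kept 3820 of 4003 barcodes and the light-damaged library 6427 of 6821, with medians of 4846 and 7351 UMIs (unique molecular identifiers, one per captured mRNA molecule) over all barcodes. The lowest barcode had 1227 UMIs in the control library and 3059 in the other. Cells were classed by marker sums per 10000 UMIs. Microglia had at least 20 UMIs of P2ry12, Tmem119, Siglech, Gpr34 and P2ry13 (3377 control and 4395 light-damaged cells). Perivascular macrophages had at least 10 of Mrc1, F13a1, Cd163, Lyve1 and Cbr2 (52 and 83 cells), and other macrophages had under 10 of both sums (244 and 1166 cells). Cells that met neither rule, 142 and 781, and those that met both, 5 and 2, were left out. Of the barcodes kept, 42 occurred in both libraries. Markers outside the rules went with the names of the first 2 classes: a sum of 7 further microglia markers stood at 17063 CPM (UMIs per 1000000 UMIs of the class) in control microglia and 3312 in control perivascular macrophages, and a sum of 7 further perivascular markers at 92.4 and 3790. The third class was less uniform. The 7 further microglia markers stood at 3058 CPM in its control cells and 4616 CPM in its light-damaged cells. At least 20 of these UMIs per 10000 were found in 54.9% and 83.4% of its cells. Only 168 of its 244 control cells reached 50 UMIs per 10000 of 9 pan-macrophage markers, against 1129 of 1166 light-damaged cells, and the other control cells are described with the results they touch.

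Copies of ribosomal protein genes set the limits of what a 3′ count can tell apart, so 2 pairs among the members are shown here from the GENCODE M21 transcripts. Rps27 (chr3:90212522-90213651, minus strand, GRCm38) encodes a small-subunit protein in 4 exons. Rps27rt (chr9:114982366-114982739, minus strand) has 1 exon and is a retrocopy. Their coding sequences of 255 bases, stop codon included, differed at 0 positions, so a read from this part could not be placed by its letters, and the sequence below stands for both.

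Rps27 and Rps27rt: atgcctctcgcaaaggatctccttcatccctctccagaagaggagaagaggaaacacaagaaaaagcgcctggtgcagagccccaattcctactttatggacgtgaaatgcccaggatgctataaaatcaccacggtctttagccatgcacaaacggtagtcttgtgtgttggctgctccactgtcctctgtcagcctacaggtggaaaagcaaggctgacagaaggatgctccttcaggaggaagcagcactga

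Rpl6 (chr5:121204481-121209241, plus strand) encodes a large-subunit protein in 7 exons, and Rpl6l (chr10:111125851-111126721, plus strand) is annotated as a processed pseudogene with 1 exon. The 2 differed at 11 of 871 aligned bases, an identity of 98.7%. The stretch with the most differences, bases 368 to 517 of the Rpl6 coding sequence, is shown with its 7 differing bases in capitals.

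Rpl6: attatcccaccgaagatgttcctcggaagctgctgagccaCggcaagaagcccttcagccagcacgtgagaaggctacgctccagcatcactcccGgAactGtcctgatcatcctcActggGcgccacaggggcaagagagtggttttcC

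Rpl6l: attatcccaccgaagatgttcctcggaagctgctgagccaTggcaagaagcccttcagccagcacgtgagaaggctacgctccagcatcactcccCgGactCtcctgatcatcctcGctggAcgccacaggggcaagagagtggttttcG

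Ribosomal protein UMIs made up a larger share of all UMIs in the light-damaged library in each class. In microglia the 87 genes together gave 16.8% of UMIs in the control library (2775657 of 16530144) and 21.5% in the light-damaged library (7008398 of 32576224), a ratio of 1.28 (1.279 to 1.283). In perivascular macrophages the shares were 15.1% and 16.6%, a ratio of 1.10 (1.09 to 1.11). In other macrophages they were 13.4% and 19.2%, a ratio of 1.44 (1.43 to 1.44). Markers of other cells moved along with these shares. In perivascular macrophages a sum of 6 monocyte markers, 3 of them at 0 in each library, went from 10876 to 25730 CPM, and 5 markers of macrophages in lesions, 4 and 5 of them detected, from 196 to 1527 CPM. In microglia the same sums went from 995 to 1837 CPM (4 and 6 of 6 detected) and from 35.3 to 181 CPM (5 of 5), and 6 rod photoreceptor markers, all detected, from 540 to 114 CPM. Their part in the ratios was not tested. Single cells overlapped widely: the middle 90% of microglia ran from 7.43% to 24.5% in the control library and from 13.7% to 28.2% in the light-damaged one, with medians of 15.7% and 21.5%. In microglia the subunits moved together. The ratio was 1.28 for the genes of the large subunit and 1.28 for those of the small subunit. Large-subunit UMIs were 1.27 times small-subunit UMIs in control microglia and 1.26 times in light-damaged ones. The ratios were 1.10 and 1.09 in perivascular macrophages. In other macrophages they differed more, with 1.47 (1.46 to 1.48) for the large and 1.40 (1.39 to 1.41) for the small subunit.

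**Figure D1:**
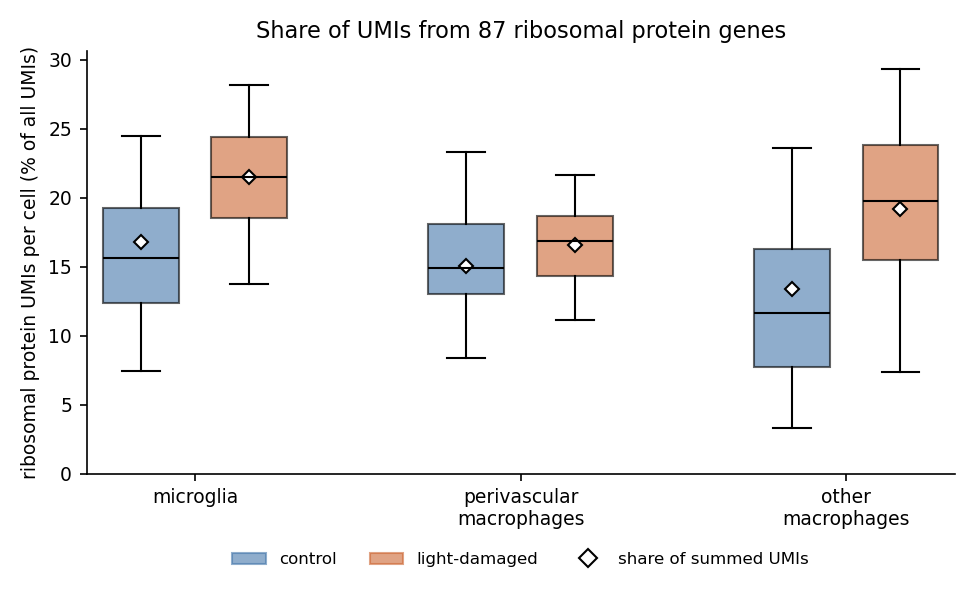
Share of each cell's UMIs from the 87 ribosomal protein genes (y axis, percent) in 3 cell classes (x axis) of the control and the light-damaged library. Boxes span the middle 50% of cells, lines the median, whiskers the 5th to 95th percentile, and diamonds the share of the summed UMIs, 16.8% and 21.5% in microglia, 15.1% and 16.6% in perivascular macrophages, and 13.4% and 19.2% in other macrophages.

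The share also moved with the depth of the cell, and depth differed between the libraries. Control microglia under 3000 UMIs, of which the light-damaged library had none, had a median share of 11.9% (602 cells). It was 14.3% at 3000 to 5000 UMIs, 18.04% at 5000 to 8000 and 20.2% at 8000 to 12000. Light-damaged microglia had 19.3%, 21.9% and 22.9% in the same 3 ranges. The ratio of summed shares was 1.32 (1.32 to 1.33) at 3000 to 5000 UMIs, 1.21 (1.21 to 1.21) at 5000 to 8000 and 1.14 (1.14 to 1.15) at 8000 to 12000. Above 12000 UMIs it was 1.26 (1.25 to 1.28), with 16 control cells. In other macrophages the ratio lay between 1.36 and 1.68 in the 4 ranges that both libraries filled. In perivascular macrophages it ran from 0.900 at 3000 to 5000 UMIs, with 5 control and 11 light-damaged cells, to 1.36 above 12000, with 1 and 15. Other readings of the library moved with the share in microglia: mitochondrial UMIs went from 1.68% to 2.73%, and the nuclear RNA Malat1 from 2.69% to 1.09%. Their part in the difference was not tested.

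**Figure D2:**
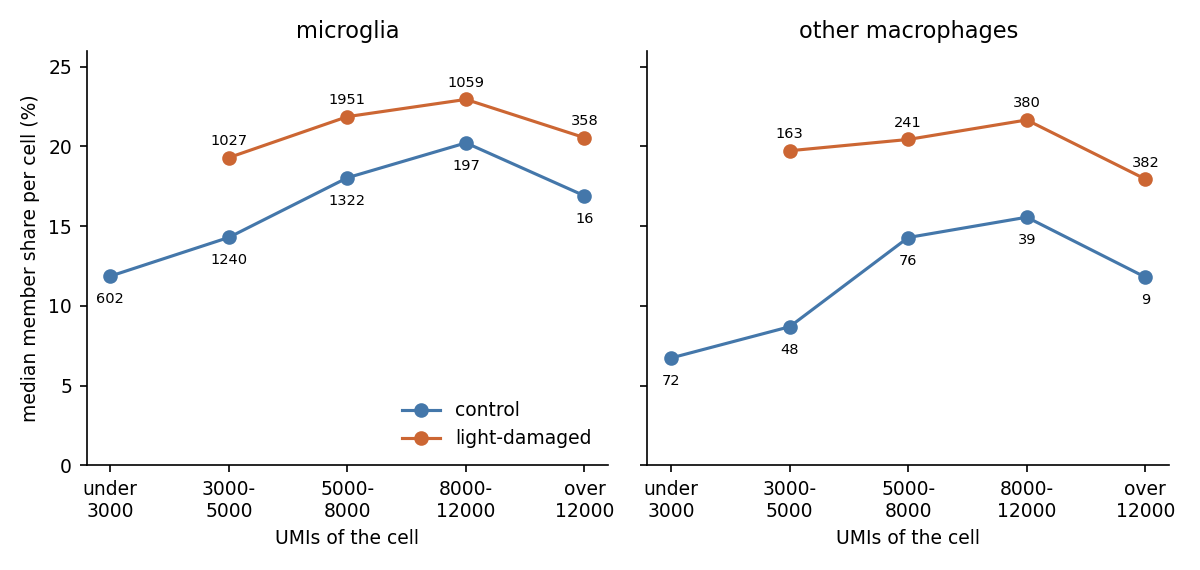
Median share of UMIs from ribosomal protein genes per cell (y axis, percent) against the UMIs of the cell (x axis, 5 ranges), for microglia and other macrophages of each library, with the number of cells beside each point. The light-damaged library lies above the control library in every range that both fill, and the gap in microglia is narrowest at 8000 to 12000 UMIs (20.2% and 22.9%).

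For single genes, a gene was measured where the mean of the 2 libraries reached 20 CPM, and a ratio over 1.5 or its inverse was counted. Of the 87 members, 84 were measured in each class. In microglia 22 members were over 1.5-fold higher in the light-damaged library and 2 were over 1.5-fold lower, against 4.64% and 5.78% of the 4912 genes measured. The median log2 ratio was 0.46 over members and -0.02 over all measured genes. In other macrophages 47 members were higher and 1 lower, against 22.8% and 23.9% of 5027 genes, with medians of 0.62 and 0.05. In perivascular macrophages 1 was higher and 6 lower, against 18.5% and 13.6% of 4360 genes, with medians of 0.23 and 0.07. The direction was common to most members: the ratio was above 1 in all 3 classes for 61 of 84, below 1 in all 3 for 8, and mixed for 15. The share of all genes above 1 in all 3 was not computed. In microglia, perivascular and other macrophages taken singly, 73, 61 and 76 of 84 members were above 1. Of all measured genes 2323 of 4912, 2422 of 4360 and 2635 of 5027 were. Within the range of 5000 to 8000 UMIs the microglia count past 1.5-fold fell to 6 of 84 higher (among them Rpsa, Rpl10a, Rps10, Rpl23 and Rps27a) and 5 lower (Rps27rt, Rpl6l, Rps28, Rpl15 and Rpl35). These are 7.14% and 5.95% of the measured members, near the 4.40% and 4.52% of 4841 genes in the same cells, while the median member log2 ratio there was 0.37. The perivascular split changed with the range. It was 2 higher and 10 lower at 3000 to 5000 UMIs (33.7% and 42.4% of all measured genes in the same cells), 13 and 4 at 5000 to 8000 (31.7% and 20.8%), with 20 cells a library, and 2 and 7 at 8000 to 12000 (22.1% and 20.6%). The perivascular split also moved with the scaling, to 0 higher and 7 lower with a median of ratios over measured genes and to 2 higher and 5 lower over UMIs of genes that are not members. The share of all genes was not computed under these scalings.

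**Figure D3:**
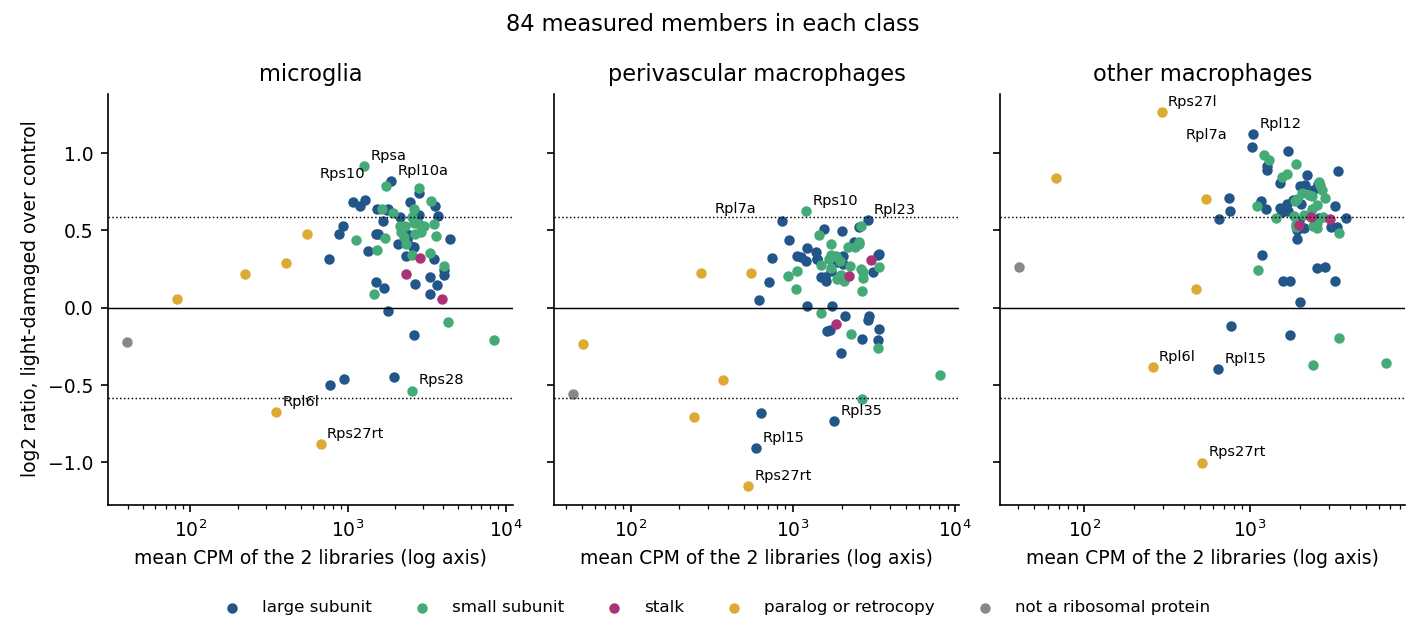
Log2 ratio of the light-damaged over the control library (y axis) against the mean level of the 2 libraries in CPM (x axis, log scale) for the 84 measured members in each class, coloured by role. Dotted lines mark 1.5-fold; 22 members lie above the upper line in microglia, 1 in perivascular macrophages and 47 in other macrophages, and Rps27rt is the lowest in each.

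Rps29 (9089 CPM), Rps27 (4474), Rplp1 (3864) and Rpl41 (3751) were the members with the most UMIs in control microglia. A 3′ library tags 1 end of each molecule, so these levels were not divided by length. Among the 4, Rps29 and Rps27, of the small subunit, were lower in light-damaged microglia, at 7852 CPM (0.864, 0.859 to 0.870) and 4201 CPM (0.939, 0.931 to 0.948). Rpl41, the shortest of all members by coding length, went to 4336 CPM (1.16, 1.14 to 1.17). These most abundant members were thus not those with the largest ratios.

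Of the small subunit, Rpsa had the highest ratio of all measured members in microglia. Rpsa (ENSMUSG00000032518, chr9:120127689-120132369, plus strand) encodes a protein of the small subunit that is also known as the laminin receptor. It had 878 CPM in control and 1655 CPM in light-damaged microglia, a ratio of 1.89 (1.85 to 1.92). In other macrophages it had 811 and 1610 CPM (1.99, 1.87 to 2.11), but in perivascular macrophages 873 and 1006 CPM (1.15, 1.01 to 1.32). Rps10 (chr17:27630418-27636669, minus strand) had 1282 and 2211 CPM in microglia (1.72, 1.70 to 1.75). It was the 1 member over 1.5-fold higher in perivascular macrophages, at 950 and 1468 CPM (1.54, 1.37 to 1.75), and had a ratio of 1.94 in other macrophages. Rps6, the substrate of the S6 kinases, had a ratio of 1.39 (1.37 to 1.41), near the median of the members.

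Rps28 and Rps29 stood at the other end of the small subunit. Rps28 (chr17:33819027-33824562, minus strand) had 3033 CPM in control and 2091 CPM in light-damaged microglia, a ratio of 0.690 (0.682 to 0.698). It was also lower in perivascular macrophages, with 3216 and 2140 CPM (0.666, 0.617 to 0.718), and in other macrophages, with 2715 and 2103 CPM (0.775, 0.748 to 0.802). Rps29 had ratios of 0.864, 0.740 and 0.781 in the 3 classes. Both were therefore lower in each class, while the summed share of the small subunit was higher in each.

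Rps27a encodes ubiquitin fused to a small-subunit protein. It had 2583 and 4165 CPM in microglia (1.61, 1.59 to 1.63), 2210 and 2941 in perivascular macrophages (1.33) and 2143 and 3503 in other macrophages (1.63). Of the ribosomal proteins outside the rule, Gnb2l1 was higher in microglia (1.98, 1.94 to 2.02), and Fau, a ubiquitin-like fusion, had a ratio of 1.32 (1.31 to 1.33).

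Of the large subunit, Rpl10a (chr17:28328471-28331033, plus strand) led in microglia, with 1363 and 2407 CPM (1.77, 1.74 to 1.79), and had 1124 and 2273 CPM in other macrophages (2.02, 1.92 to 2.13). Rpl23 went from 2123 to 3552 CPM in microglia (1.67, 1.65 to 1.69), Rpl7a from 980 to 1587 (1.62) and Rpl19 from 1895 to 3052 (1.61). In perivascular macrophages the highest members after Rps10 were Rpl23 (1.48), Rpl7a (1.47) and Rps9 (1.44). In other macrophages Rpl12, which sits at the base of the stalk, had 659 and 1436 CPM (2.18, 2.04 to 2.33), the highest ratio there after Rps27l, and Rpl7a had 674 and 1385 CPM (2.06, 1.92 to 2.20).

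A few large-subunit members were lower in each class, against the sum of their subunit. Rpl15 (chr14:18267823-18271391, minus strand) had 899 and 635 CPM in microglia (0.707, 0.692 to 0.722), 779 and 416 CPM in perivascular macrophages (0.534, 0.454 to 0.628) and 732 and 556 CPM in other macrophages (0.759, 0.710 to 0.812). Rpl27 had ratios of 0.728, 0.625 and 0.922, and Rpl35 of 0.733, 0.603 and 0.886 in the same order. Rpl23a, which with Rpl35 lies beside the exit of the peptide tunnel, had 0.884 and 0.818 in the first 2 classes and 1.03 (0.985 to 1.07) in the third. The 8 members below 1 in all 3 classes were Rpl15, Rpl27, Rpl35, Rps27, Rps28, Rps29, Rpl6l and Rps27rt.

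The stalk, which draws translation factors to the ribosome, did not keep 1 ratio across its genes and classes. Rplp0, its base, had 2172 and 2527 CPM in microglia (1.16, 1.15 to 1.18), 1901 and 1770 in perivascular macrophages (0.931, 0.849 to 1.02) and 1613 and 2343 in other macrophages (1.45, 1.39 to 1.52). Rplp1 had 3864 and 4015 CPM in microglia (1.04, 1.03 to 1.05), 2735 and 3381 in perivascular macrophages (1.24) and 2428 and 3620 in other macrophages (1.49). Rplp2 had ratios of 1.25, 1.15 and 1.50. Per Rplp0 UMI, Rplp1 in microglia stood at 178% (176 to 180) in the control library and 159% (157 to 160) after light damage, whereas in perivascular macrophages it stood at 144% (130 to 159) and 191% (179 to 204).

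Among the paralogs, Rps27l, a relative of Rps27 known as a target of p53, had the highest ratio in other macrophages. It had 172 CPM in control and 414 CPM in light-damaged other macrophages, a ratio of 2.40 (2.11 to 2.75), against 204 and 238 CPM in microglia (1.17, 1.12 to 1.21) and 251 and 294 in perivascular macrophages (1.17, 0.913 to 1.51). Rpl22l1, the paralog of Rpl22, had ratios of 1.22 (1.18 to 1.26), 0.725 (0.590 to 0.892) and 1.09 (0.998 to 1.18). Rpl36al had 1.39, 1.17 and 1.63, and Rpl7l1, at 81.2 and 84.5 CPM in microglia, had 1.04 (0.975 to 1.11) there and 1.79 (1.39 to 2.33) in other macrophages. Rpl39l was below the minimum, with 5.51 and 10.8 CPM in microglia. Rpl3l and Rpl10l, known from muscle and testis, had 0 UMIs in each class of the control library and at most 0.316 CPM in the light-damaged one. Rps19bp1 had 42.6 and 36.5 CPM in microglia (0.858, 0.781 to 0.943).

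The copies differed from their parents by library in every class. Rps27rt had 871 CPM in control and 472 CPM in light-damaged microglia (0.542, 0.530 to 0.555), and ratios of 0.450 and 0.499 in the other 2 classes. Its UMIs were 19.5% (19.1 to 19.8) of those of Rps27 in control microglia, 19.97% (17.4 to 22.8) in control perivascular macrophages and 18.7% (17.4 to 20.1) in other control macrophages. In the light-damaged library they were 11.2% (11.1 to 11.4), 10.8% (9.45 to 12.3) and 10.7% (10.4 to 11.0). Rpl6l stood at 17.0% to 19.2% of Rpl6 in the control classes and at 8.96% to 9.15% in the light-damaged ones. The symbols marked as pseudogenes, which the rule leaves out, did the same: all 11 measured in microglia were over 1.5-fold lower in the light-damaged library, with a median ratio of 0.4998, and so were 9 of 10 in perivascular and 7 of 10 in other macrophages. With Rps27rt and Rpl6l this made 13 copies whose UMIs per parent UMI were lower in the light-damaged library in each of the 3 classes, with a median ratio of 0.397 in microglia. The gene tables of both libraries hold the same 27998 genes. The sources used here do not state the read length or annotation release behind each library, and both bear on how reads are shared between a copy and its parent, so their part in the ratios of copies and of members was not tested. The pseudogenes together went from 0.332% to 0.170% of UMIs in microglia, while the members went from 16.8% to 21.5%. These shares hold only UMIs counted for a gene, so they do not tell how far reads of members were shared or lost.

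**Figure D4:**
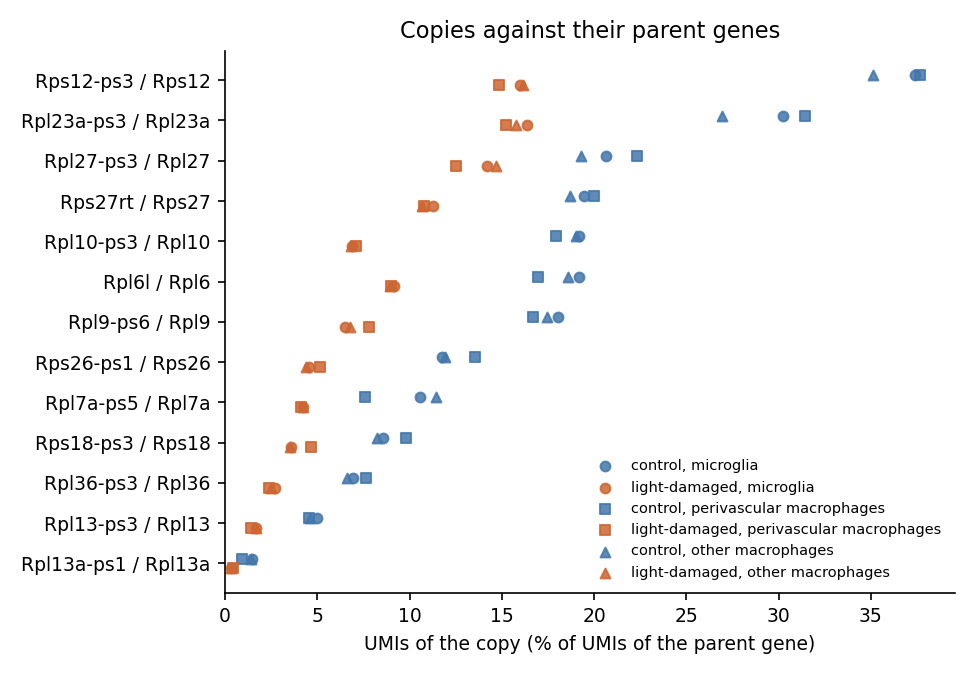
UMIs of 13 copies as a percentage of the UMIs of their parent gene (x axis), one copy a row, in 3 classes (symbols) of the control (blue) and light-damaged (orange) library. For each of the 13 copies the 3 control values lie above the 3 light-damaged values, as for Rps27rt at 18.7% to 19.97% and 10.7% to 11.2%.

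Members that share sequence with other genes were set beside the rest. For 50 of the 87 members more than 50% of the 50-base words in the last 500 transcript bases occurred in another annotated gene. Their median log2 ratio in microglia was 0.44, with 12 of 50 over 1.5-fold higher and 2 lower, against 0.49, with 10 of 34 higher and 0 lower, for the rest. Of all genes measured in microglia 4.64% were higher and 5.78% lower. Without those 50 members the summed log2 ratio in microglia was 0.38 in place of 0.36. In perivascular macrophages all 7 members past 1.5-fold, 1 higher and 6 lower, were among the 50, and 0 of the 34 others passed. The 1 and 6 are 2% and 12% of the 50, below the 18.5% and 13.6% of all genes measured in that class. Of the 8 members below 1 in all 3 classes, 7 were among the 50, all but Rps29. Over 83 members, Spearman's rho between the share of copied words and the log2 ratio was -0.045, -0.071 and -0.11 in microglia, perivascular and other macrophages. The medians of both sets were thus close, while the low members lay mostly in the set with shared sequence, and the part of shared sequence in their ratios was not tested.

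Shorter members had lower median ratios. The 15 measured members with a coding length of up to 330 bases, a limit chosen after the values were seen, had a median log2 ratio of 0.13 in microglia, with 0 over 1.5-fold higher and 1 lower. The 68 longer members had 0.48, with 22 higher and 0 lower. Of all genes measured in microglia 4.64% were higher and 5.78% lower. The medians had the same order in perivascular macrophages (-0.14 and 0.28) and in other macrophages (0.24 and 0.66). In other macrophages 2 of the 15 short members were over 1.5-fold higher and 1 lower, against 22.8% and 23.9% of all measured genes. Rps27l, with 252 coding bases and the highest ratio of that class (2.40), was among the 2. Over 83 members with a coding sequence, which share libraries and cells, Spearman's rho between coding length and log2 ratio was 0.42 in microglia, 0.31 in perivascular and 0.39 in other macrophages. Transcript length gave 0.39, 0.27 and 0.42, so the 2 lengths are not separated here, and rho with GC content was 0.02, -0.0010 and 0.02. Other short genes did not show such a gap in microglia: the median was 0.01 for 244 genes up to 330 bases and -0.02 for 4524 longer ones, and it was 0.03 and 0.09 for the 23 short and 45 long nuclear genes of the respiratory chain. Over all genes outside the members, the short ones were not the lower ones in the other classes either. Their median was 0.10 against 0.07 for long genes in perivascular macrophages, and 0.23 against 0.03 in other macrophages. Short and long genes of the respiratory chain had 0.20 and 0.12 in perivascular macrophages. In other macrophages they had 0.25 and 0.41, the same order as the members.

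**Figure D5:**
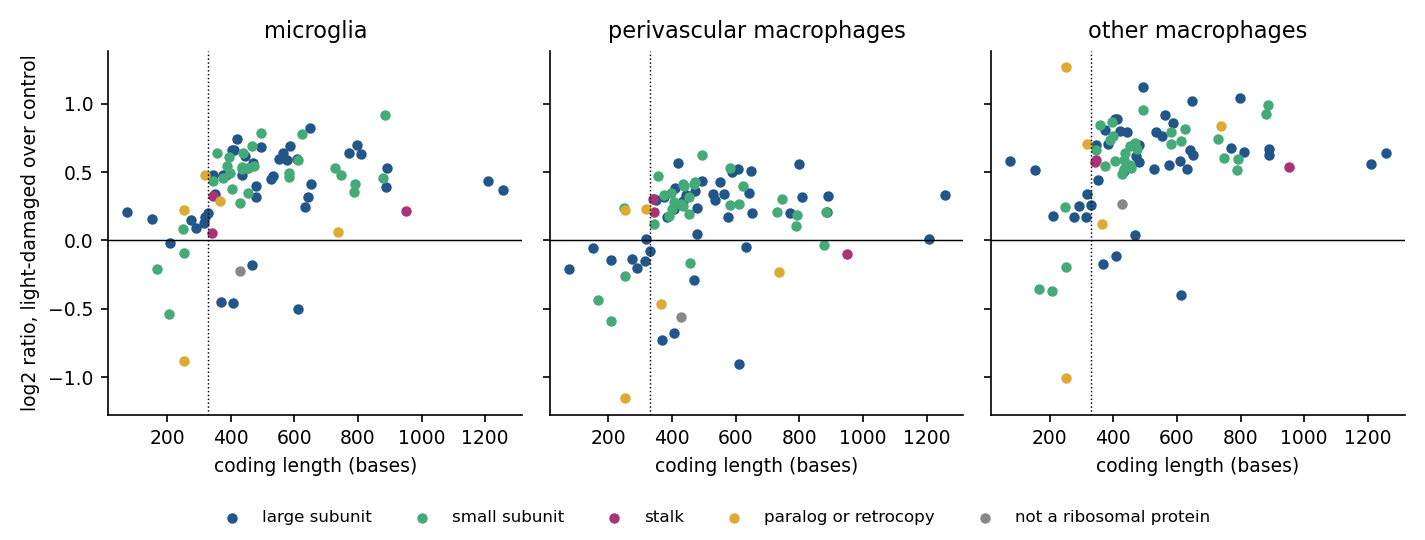
Log2 ratio of the light-damaged over the control library (y axis) against coding length in bases (x axis) for 83 members in each class, coloured by role. The dotted line marks 330 bases; members to its left have a median of 0.13 in microglia and those to its right 0.48.

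The pyrimidine run at the start of the transcript was looked for in the RefSeq promoter table (GRCm38.p6), which held 66 of the 87 members. The search took runs of at least 6 pyrimidines read from a C within 5 bases of the annotated start, on the transcribed strand only. Such a run was found for 27 of these 66 members (40.9%) and for 3229 of all 27025 genes in the table (11.9%). Bases before that C were not looked at, so a counted run can open further upstream. This is so for Rpl35 below, where the bases just before the capitals are pyrimidines too. The 27 measured members with a run had a median log2 ratio of 0.44 in microglia and the 36 without a run 0.46. The 4 windows below run from 10 bases before the start to 20 after it, with the run in capitals from the C found. Members with a run lay at both ends of the range, and so did members without one. Rpsa, the highest in microglia, had none in this window, and none was found for Rpl10a, also high. Among the low members Rps28 (log2 ratio -0.54) and Rpl27 (-0.46), whose windows are not shown, had none either. Rpsa (chr9:120127756-120127785 on the plus strand) and Rps10 (chr17:27635225-27635254 on the minus strand) were among the highest, and Rpl15 (chr14:18270967-18270996 on the minus strand) and Rpl35 (chr2:39005112-39005141 on the minus strand) among the lowest.

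Rpsa: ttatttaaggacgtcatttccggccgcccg

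Rps10: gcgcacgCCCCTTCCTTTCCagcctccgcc

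Rpl15: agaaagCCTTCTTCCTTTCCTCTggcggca

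Rpl35: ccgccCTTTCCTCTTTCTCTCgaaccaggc

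Other genes of protein synthesis were set beside the members. Of 17 translation factors and other mRNAs known for the same motif, 6 were over 1.5-fold higher in light-damaged microglia and 0 lower, with a median ratio of 1.42, against 4.64% and 5.78% of all measured genes and a median of 1.37 over the members. They included Eef1a1, which brings tRNA to the ribosome (4247 and 6700 CPM, 1.58), Eef2, which moves it along (1021 and 1692 CPM, 1.66), and Eef1b2 (444 and 791 CPM, 1.78). Others of the list had lower ratios: Eif4a1, a helicase of initiation, had a ratio of 0.799 (0.780 to 0.818), Hnrnpa1 1.01 and Eif4a2 1.03. The promoter table held 11 genes of this list, and the run searched for above was found for 2 of them (18.2%). That compares with 40.9% of the members and 11.9% of all genes in that table. Of 26 measured genes of initiation, recycling and regulation, 2 were higher and 1 lower (7.69% and 3.85%), near the share of all genes. Of 20 measured genes of ribosome biogenesis, 0 were higher and 2 lower: Myc, a driver of ribosome production, went from 55.7 to 21.6 CPM (0.388, 0.351 to 0.429) and Nip7 from 47.9 to 31.7 CPM (0.663). Of 66 measured genes of the mitochondrial ribosome, 0 were higher and 1 lower in microglia (median ratio 1.00), but 33 were higher and 2 lower of 64 in other macrophages (median 1.52), against 22.8% and 23.9% of all genes there. Those of the respiratory chain had 3 higher and 0 lower of 68 in microglia.

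Within a library, perivascular macrophages had a lower summed share of ribosomal protein UMIs than microglia, but in the control library the order depended on depth. The ratio was 0.899 (0.891 to 0.906) in the control library and 0.771 (0.766 to 0.775) after light damage. In the control library 62 of 84 members were lower than in microglia, but 0 were over 1.5-fold lower and 0 higher, against 36.2% and 15.3% of 4719 genes. Most genes were lower there, with only 1576 of the 4719 above microglia. The median log2 ratio was -0.17 over members and -0.32 over all measured genes. In the light-damaged library 82 of 84 members were lower, 11 of them over 1.5-fold and 0 over 1.5-fold higher, against 28.2% and 14.5% of 4752 genes. Of these 4752 genes 1600 were above microglia, and the medians were -0.41 over members and -0.28 over all measured genes. The 11 were Rpl7a, Rpl9, Rpl21, Rpl18, Rpl13, Rpl15, Rpsa, Rpl27, Rpl3, Rps10 and Rpl7l1. The lowest in the control library were Rpl7l1 (0.681, 0.414 to 1.05), Rps21 (0.688), Rpl21 (0.695) and Rpl7a (0.705), with 0.557, 0.764, 0.622 and 0.641 in the light-damaged one. The highest were Rps19bp1 (1.23, 0.738 to 1.94), Rps27l (1.23, 0.987 to 1.51), Rpl22l1 (1.17) and Rpl28 (1.14), with 0.975, 1.23, 0.694 and 0.945. The control value was the less firm of the pair: on the log2 scale it was -0.15, but -0.02 as a mean over cells or with stricter marker cuts (17 perivascular cells), and -0.41 in cells of 5000 to 8000 UMIs. In shallower control cells the order was reversed. Under 3000 UMIs the summed share was 18.1% in 6 perivascular macrophages and 13.04% in 602 microglia, and at 3000 to 5000 UMIs it was 19.4% in 5 and 14.7% in 1240. At 8000 to 12000 UMIs it was 15.6% in 20 perivascular macrophages and 19.8% in 197 microglia. In the light-damaged library perivascular macrophages were lower in each of the 4 ranges filled, as at 3000 to 5000 UMIs with 17.4% and 19.5%.

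Other macrophages also had a lower share than microglia, at a ratio of 0.796 (0.792 to 0.7998) in the control library and 0.893 (0.892 to 0.894) after light damage. Of 5178 genes measured in the control library 2260 were above microglia, but 83 of 84 members were lower than in microglia. Those over 1.5-fold lower were 4, Rpl21 (0.616), Rplp1 (0.628), Rps9 (0.641) and Rpl7l1 (0.597), and 0 were over 1.5-fold higher, against 25.7% and 21.0% of 5178 genes. In the light-damaged library these 4 had 0.761, 0.902, 0.803 and 1.03. There, 0 members were over 1.5-fold lower and 1, Rps27l (1.74), was higher, against 16.3% and 12.4% of 4851 genes. The highest in the control library were Rpl22l1 (1.23), Rps19 (0.970), Rpl28 (0.959) and Rpl9 (0.930), with 1.09, 1.00, 1.12 and 0.906 in the light-damaged one.

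The make-up of the third class differed between libraries along with its share. A sum of 6 rod photoreceptor markers, all detected, stood at 15034 CPM in the control cells and 320 in the light-damaged ones, and 22.5% and 1.20% of cells had at least 20 of these UMIs per 10000. The 55 such control cells had a member share of 8.37%, against 14.3% in the other 189. Markers of macrophages in lesions (5 of 5 detected) went from 666 to 5839 CPM, and those of monocytes from 7130 (5 of 6 detected) to 16252 CPM (6 of 6). Kept to cells with at least 50 pan-macrophage UMIs per 10000, the shares were 15.0% in 168 control and 19.5% in 1129 light-damaged cells, a log2 ratio of 0.38 in place of 0.52, and 32 members were over 1.5-fold higher and 1 lower. These are 38.1% and 1.19% of the 84 measured members, against 30.8% and 17.7% of 4513 genes in the same cells. On the same cells the ratio to microglia was 0.891 in the control library and 0.907 after light damage.

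Dividing cells, which are known for making ribosomes, were rare in the control library. Light-damaged microglia with at least 3 UMIs of 5 division markers (93 cells) had a median member share of 17.3%, against 21.6% in the 3862 cells with 0 such UMIs. Their median depth was 16279 UMIs against 6589. In other macrophages the 113 dividing cells had 19.2% and the 831 without these UMIs 20.1%. The control library had 5 such microglia.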

How the data were processed

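Single-cell 3′ RNA libraries of sorted retinal cells were analysed, 1 control and 1 light-damaged, each from 1 pool of 5 to 8 mice. The UMI count matrices, with whole-number counts per gene and barcode that were not normalized, were deposited by the authors; Cell Ranger 2.0.0 and mm10 are named in the submitters' processing notes. For the annotation release, read lengths and cell calling the sources used here give nothing.

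Barcodes were kept from 300 genes upward and up to 10% mitochondrial UMIs. Scrublet (in scanpy 1.11.5) marked 0 doublets by its own threshold in each library, so the highest scores were removed, 0.8% per 1000 barcodes, which were 128 control and 372 light-damaged barcodes. UMIs were summed per library and class and scaled to counts per 1000000 (CPM). Ratios have exact conditional Poisson intervals and shares Clopper-Pearson intervals, both at 95% and for counting error only; PCR and capture can add to it. No test and no p-value was computed, since each group is 1 library. The ratio and its interval were tested on simulated data. Python 3.11.15, numpy 2.4.6, scipy 1.17.1 and Biopython 1.88 were used.

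Coordinates, coding lengths and transcripts are from GENCODE M21 (GRCm38, the assembly of mm10), with 1 transcript per gene by annotation rank. Named members were the 5 most abundant in control microglia, the 8 highest and 8 lowest ratios in microglia, the 4 highest and 4 lowest in each other comparison, the stalk, Rpsa, Rps27a, Rps19bp1 and the paralogs; a few others named for their role or place were chosen after their values were seen. The members and lists were chosen with earlier results of these data known. Some genes that these choices would name are not reported here.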

Additional observations from a re-analysis of the deposited data

Results flagged for a closer look

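For 7 members the interval of the light-damaged over control ratio lay above 1 in one class and below 1 in another; the difference between classes was not tested, and each class is 1 library per group. Rpl22l1 had 1.22 in microglia and 0.725 in perivascular macrophages. The other 6 were higher in other macrophages and lower in perivascular macrophages. Rpl41 had 1.16 in microglia, 1.50 in other and 0.864 in perivascular macrophages. Rps18 had 1.27, 1.44 and 0.890 in the same order, Rpl37 had 1.06, 1.19 and 0.869, Rpl37a had 1.11, 1.13 and 0.909, and Rpl36 had 1.09, 1.13 and 0.903. Rpl38 had 1.13 in other macrophages, 0.985 in microglia and 0.906 in perivascular macrophages. The perivascular values rest on 52 control and 83 light-damaged cells.

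Cells that met no class rule were outside every comparison and showed the same direction. They were 3.72% of control and 12.2% of light-damaged cells, and their median member share was 15.0% in control and 19.3% in light-damaged cells.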

How the results depend on the processing

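Of 146 alternative values for the 10 summary results, 77 kept within the counting interval or within 1.5 times the count, 67 moved beyond it, and 2 turned direction; the cause was not tested. Both turns came at 3000 to 5000 UMIs, with 5 control perivascular cells: light-damaged over control in perivascular macrophages, 0.14, became -0.15, and perivascular macrophages against microglia in the control library, -0.15, became 0.40. Values below are log2 ratios of the member share. The light-damaged over control value, 0.36 in microglia, was 0.35 under the stricter cell filter (500 genes, 5% mitochondrial UMIs), 0.36 in cells thinned to 3000 UMIs, 0.42 as a mean over cells, 0.39 with stricter class cuts, 0.38 without members with copied words, 0.29 without mitochondrial and the 20 most abundant other genes in the denominator, 0.40, 0.27 and 0.19 in cells of 3000 to 5000, 5000 to 8000 and 8000 to 12000 UMIs, and 0.36 without paralogs, retrocopies and Rps19bp1. In perivascular macrophages, 0.14 became 0.12 with thinning, 0.077 as a mean over cells, 0.16 with cells of both rules, 0.033 with stricter cuts, 0.25 at 5000 to 8000 UMIs and 0.079 at 8000 to 12000. In other macrophages, 0.52 became 0.51 with no doublets removed, 0.43 under the stricter cell filter, 0.50 with thinning, 0.66 as a mean over cells, 0.68 with stricter cuts, 0.54 without copied members, 0.49 with the narrower denominator, 0.67, 0.44 and 0.44 in the 3 ranges of depth and 0.38 with the pan-macrophage limit.

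Perivascular macrophages against microglia, -0.15 in the control library, gave -0.13 with thinning, -0.023 as a mean over cells, -0.18 with cells of both rules, -0.023 with stricter cuts, -0.12 without copied members, -0.086 with the narrower denominator, -0.41 at 5000 to 8000 UMIs and -0.34 at 8000 to 12000. In the light-damaged library -0.38 became -0.25 with the narrower denominator and -0.16, -0.43 and -0.45 in the 3 ranges of depth. Other macrophages against microglia, -0.33 in the control library, gave -0.32 with no doublets removed, -0.24 under the stricter cell filter, -0.27 with thinning, -0.37 as a mean over cells, -0.52 with stricter cuts, -0.34 at 3000 to 5000 UMIs, -0.36 at 8000 to 12000 and -0.17 with the pan-macrophage limit. In the light-damaged library -0.16 became -0.16 under the stricter cell filter, -0.13 with thinning, -0.13 as a mean over cells, -0.23 with stricter cuts, -0.14 with the pan-macrophage limit, -0.18 without copied members, -0.12 with the narrower denominator, -0.075 at 3000 to 5000 UMIs, -0.11 at 8000 to 12000 and -0.17 without paralogs, retrocopies and Rps19bp1.

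Members past 1.5-fold, 24 in microglia, 7 in perivascular and 48 in other macrophages, became 10, 0 and 22 without copied members, where fewer were counted, and 0, 1 and 5 past 2-fold. They were 11 at 5000 to 8000 and 9 at 8000 to 12000 UMIs in microglia, and 12 at 3000 to 5000 and 17 at 5000 to 8000 UMIs in perivascular macrophages, where the split between higher and lower changed too. No share of all genes was computed past 2-fold or for microglia of 8000 to 12000 UMIs, so those counts cannot be set against genes at large. Of 1142 values of named members under alternatives, 341 moved beyond their counting interval and 1 past 1.5-fold turned direction: Rpl6l in perivascular macrophages, lower in the whole class, had a log2 ratio of 0.023 at 3000 to 5000 UMIs. The choice of the 3 ranges of depth, of leaving out the 47 barcodes found in both libraries, and of leaving out paralogs was made after seeing the data. Thinning draws UMIs of a cell at random and so keeps its expected member share, so the thinned values cannot show the part of depth. It also left out 602 control microglia and 0 light-damaged ones. No paired analysis was possible because each group is 1 library. The perivascular class had the fewest cells, 52 in the control library, with 361974 UMIs.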
